A study of Homo sapiens with 16 samples.

Results

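The core genes of RNA interference were followed through a knock-down of FOXA1 in 2 human bladder cancer cell lines. The 10 genes were DROSHA, XPO5, DICER1, TARBP2, AGO1, AGO2, AGO3, AGO4, TNRC6A and TNRC6B. They were taken by gene name from the count and TPM tables, where each name had exactly 1 of 58721 rows. The rule for taking them uses names alone, though the genes were picked with earlier results of these data known. All 10 passed the filter on low counts in every comparison.

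Small regulatory RNAs are made and used in steps. DROSHA cuts the primary microRNA transcript in the nucleus, XPO5 (exportin-5) carries the resulting hairpin to the cytoplasm, and DICER1, with its double-stranded RNA-binding partner TARBP2, cuts the hairpin into a duplex. An Argonaute protein (AGO1 to AGO4) keeps 1 strand as its guide, and the TNRC6 proteins (GW182 family) bind Argonaute and bring in the enzymes that shorten the poly(A) tail and remove the cap of the target messenger RNA. AGO2 is the Argonaute best known for cutting a fully matched target itself. Transfected siRNAs act through Argonaute, so every library here, controls included, came from cells given a substrate of Argonaute. This does not extend to DROSHA, XPO5 or DICER1.

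RT112 and SCaBER are established bladder cancer lines. Each was transfected for the study with 1 of 4 siRNAs, the controls siControl.1 and siControl.2 or the FOXA1-directed siFOXA1.1 and siFOXA1.2, at 10 nM per the labels, in experiment batches 1 and 2, which gave 16 libraries, 8 per line and 2 per line and siRNA. RNA was read with a kit that primes at the 3' end of polyadenylated transcripts. No library came from cells without an siRNA, each line was 1 line in its own medium (RPMI for RT112, DMEM for SCaBER), and line and medium cannot be told apart. The labels do not say that the batches were separate cultures beyond naming them, so p-values measure the spread between these libraries, which may be technical.

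The libraries held 4528513 to 7604581 counts. FOXA1, the targeted gene, was at 27.8 ± 6.98 CPM in the RT112 controls and 7.43 ± 6.61 with siFOXA1 (a gene's counts relative to all counts of its library; SD, n = 4 libraries each; two-sided exact permutation test, p = 0.0286, the smallest that 4 against 4 allows). It was 2.28 ± 1.36 CPM under siFOXA1.1 and 12.6 ± 4.81 under siFOXA1.2 (n = 2 each). In edgeR's test across all genes, used for every other gene here, FOXA1 fell with siFOXA1.1 (log2 fold change -3.44, SE 0.47, adjusted p = 2.19e-05). With siFOXA1.2 (-1.10, SE 0.39, adjusted p = 0.205) and with the siRNAs pooled (-1.86, SE 0.57, adjusted p = 0.278) it did not pass. In SCaBER it was low with siControl and with siFOXA1, at 1.39 ± 0.971 and 0.346 ± 0.452 CPM (exact permutation p = 0.114), too low for edgeR's test. Of 10 luminal markers, KRT20 and UPK3A were at or under 3 counts in all RT112 control libraries, and KRT20, UPK1A and UPK3A in all those of SCaBER. Of 10 basal markers, KRT6B and DSG3 were so in the RT112 controls. Summed luminal markers were 3412 to 3946 CPM in the RT112 controls and 2030 to 2431 with siFOXA1, and in SCaBER 865 to 1131 and 504 to 978. Summed basal markers were 398 to 562 CPM in the RT112 controls and 547 to 785 with siFOXA1, and in SCaBER 2691 to 4443 and 3688 to 4374. Their part in the results below was not tested. Summed leukocyte markers stayed at or under 5.49 CPM in all libraries and endothelial ones at or under 11.2. Of 6 fibroblast markers, COL1A2, COL3A1, DCN and PDGFRB were at or under 3 counts in all RT112 libraries. COL3A1 and DCN were so in all SCaBER libraries. Only 1 of the 6 had a mean of at least 10 CPM in the RT112 controls, and 2 had with siFOXA1. Summed fibroblast markers were 84.6 to 137 CPM in the RT112 controls and 103 to 146 with siFOXA1. In SCaBER they were 10.7 to 38.8 and 10.0 to 45.1. The mitochondrially encoded share of counts was 25.7% and 28.2% in the siFOXA1.1 libraries of RT112, 18.0% to 21.2% in the other RT112 libraries and 10.3% to 12.1% in SCaBER. In bulk samples, fewer cells expressing a gene and less of its RNA per cell cannot be told apart.

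The promoters of DICER1, DROSHA, TNRC6A and TNRC6B are shown because at least 1 comparison called each of these genes, and they were searched for forkhead words because FOXA1 is a forkhead factor. TNRC6B passed between the lines, between the FOXA1 siRNAs in SCaBER and in the test of a difference between lines, but not against the controls of either line. The windows come from RefSeq (GRCh38.p14), run from 250 bases before to 50 bases after an annotated start, and read 5' to 3' on the strand of the gene. Capitals mark the forkhead words searched, namely the word TGTTTAC, the word TGTTTAT, the word TGTTTGC and the word TGTTTGT, on either strand. The table held 15 windows for 9 of the 10 genes and none for AGO2. DICER1, the enzyme that cuts the hairpin, has 5 windows on chromosome 14, of which the first (chr14:95157480-95157779, minus strand) and the second (chr14:95157961-95158260, minus strand) are printed. DROSHA is on chromosome 5 (chr5:31532044-31532343, minus strand), TNRC6A on chromosome 16 (chr16:24729401-24729700, plus strand) and TNRC6B on chromosome 22 (chr22:40044584-40044883, plus strand).
DICER1 window 1: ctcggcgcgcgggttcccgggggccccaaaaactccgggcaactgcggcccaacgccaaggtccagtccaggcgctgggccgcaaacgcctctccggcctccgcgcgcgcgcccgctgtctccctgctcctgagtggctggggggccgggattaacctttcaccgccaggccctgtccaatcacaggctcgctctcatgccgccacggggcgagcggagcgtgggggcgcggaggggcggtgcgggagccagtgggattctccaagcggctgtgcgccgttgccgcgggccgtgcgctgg
DICER1 window 2: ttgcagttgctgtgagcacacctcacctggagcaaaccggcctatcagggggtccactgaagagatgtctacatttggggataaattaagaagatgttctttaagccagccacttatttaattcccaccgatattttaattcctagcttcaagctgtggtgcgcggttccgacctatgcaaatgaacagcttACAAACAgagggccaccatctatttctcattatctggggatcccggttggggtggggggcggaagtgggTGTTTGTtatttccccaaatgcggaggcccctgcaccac
DROSHA: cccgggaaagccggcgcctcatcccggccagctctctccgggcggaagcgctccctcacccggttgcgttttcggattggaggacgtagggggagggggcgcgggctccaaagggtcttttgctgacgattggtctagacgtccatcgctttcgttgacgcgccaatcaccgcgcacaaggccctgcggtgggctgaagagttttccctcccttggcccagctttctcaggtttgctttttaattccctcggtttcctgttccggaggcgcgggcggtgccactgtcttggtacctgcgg
TNRC6A: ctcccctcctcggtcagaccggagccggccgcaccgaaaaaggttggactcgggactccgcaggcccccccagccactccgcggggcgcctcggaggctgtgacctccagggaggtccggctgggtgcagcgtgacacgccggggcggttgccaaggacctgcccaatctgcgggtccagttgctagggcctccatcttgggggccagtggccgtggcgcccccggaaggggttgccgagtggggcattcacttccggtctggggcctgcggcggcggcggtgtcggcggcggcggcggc
TNRC6B: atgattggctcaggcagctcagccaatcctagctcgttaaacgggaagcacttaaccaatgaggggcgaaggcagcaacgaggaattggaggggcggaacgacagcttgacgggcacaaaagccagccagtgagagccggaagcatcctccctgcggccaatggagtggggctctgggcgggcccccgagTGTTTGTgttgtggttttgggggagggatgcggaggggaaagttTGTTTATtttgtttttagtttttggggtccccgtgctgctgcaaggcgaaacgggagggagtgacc

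A forkhead word stood in 4 of the 15 windows, belonging to DICER1 (windows 2 and 3, which overlap and hold the same 2 words), TNRC6B and TARBP2. Of all 35116 windows in the table, 15.1% held at least 1. No forkhead word was found in the printed windows of DROSHA and TNRC6A or in the first DICER1 window, which says only that these letters are absent there. The windows differed in base composition. The first DICER1 window held 37 CG pairs, TNRC6A 31 and DROSHA 28, against 15 in TNRC6B, 8 in the second DICER1 window and a median of 14 over all windows. The CCAAT box (CCAAT, either strand) occurred 5 times in TNRC6B and 3 times in DROSHA, and 34.6% of all windows held it at least once. A match of letters is a description and not a bound site, and no binding data are used here.

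AGO4, AGO1 and AGO3 lie next to each other on the plus strand of chromosome 1 in RefSeq, at 35807636 to 35857890, 35869761 to 35930532 and 35930718 to 36072500. AGO1 ends close to where AGO3 starts, and whether reads near that border were split between them was not tested. XPO5 (chromosome 6, 43522334 to 43576038, minus strand) overlaps the plus-strand gene POLR1C, whose mean was 46.7 CPM. DICER1 overlaps the antisense RNA DICER1-AS1, which averaged 1.11 CPM, and TARBP2 overlaps MAP3K12, a minus-strand gene. AGO2 overlaps LOC107986982, a protein-coding gene in RefSeq. The kit keeps the strand of the RNA, and the deposited processing is described as setting the strand automatically. How much these values would move under another strand setting was not tested.

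The levels without a FOXA1 siRNA were set side by side in TPM, a value per transcript length. Because the kit reads transcript ends, dividing by length lowers long transcripts, so CPM is given after it. In RT112 the order was DICER1 at 31.7 ± 2.75 TPM, TNRC6A at 28.2 ± 1.50, AGO2 at 15.6 ± 1.83, DROSHA at 14.9 ± 0.716, XPO5 at 13.2 ± 3.61, TNRC6B at 9.01 ± 1.22, TARBP2 at 7.08 ± 1.17, AGO1 at 3.57 ± 0.990, AGO4 at 3.28 ± 0.661 and AGO3 at 1.69 ± 0.475 (SD, n = 4 control libraries). The ranges of neighbours in this order overlapped except at 4 steps, between TNRC6A and AGO2, XPO5 and TNRC6B, TARBP2 and AGO1, and AGO4 and AGO3. In SCaBER TNRC6A led alone at 58.1 ± 7.24 TPM, and its range was apart from that of every other member. DICER1 at 27.2 ± 3.41, DROSHA at 25.2 ± 2.53, XPO5 at 21.7 ± 4.10, AGO2 at 16.9 ± 4.61, TARBP2 at 10.5 ± 3.96, AGO1 at 7.11 ± 2.26, TNRC6B at 5.82 ± 1.84, AGO4 at 3.70 ± 0.988 and AGO3 at 3.35 ± 1.30 followed, each overlapping the next. In CPM, which ignores length, RT112 read 199.6 ± 23.3 for DICER1, 186 ± 9.54 for TNRC6A, 126 ± 14.4 for AGO2 and 92.4 ± 15.2 for TNRC6B, so TNRC6B came before DROSHA (59.2 ± 4.27) and XPO5 (57.1 ± 14.3). In SCaBER TNRC6A again led, with 293 ± 28.1 CPM. AGO4 had the lowest mean CPM in both lines, 12.1 ± 2.13 in RT112 and 10.6 ± 3.05 in SCaBER.

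**Figure D1:**
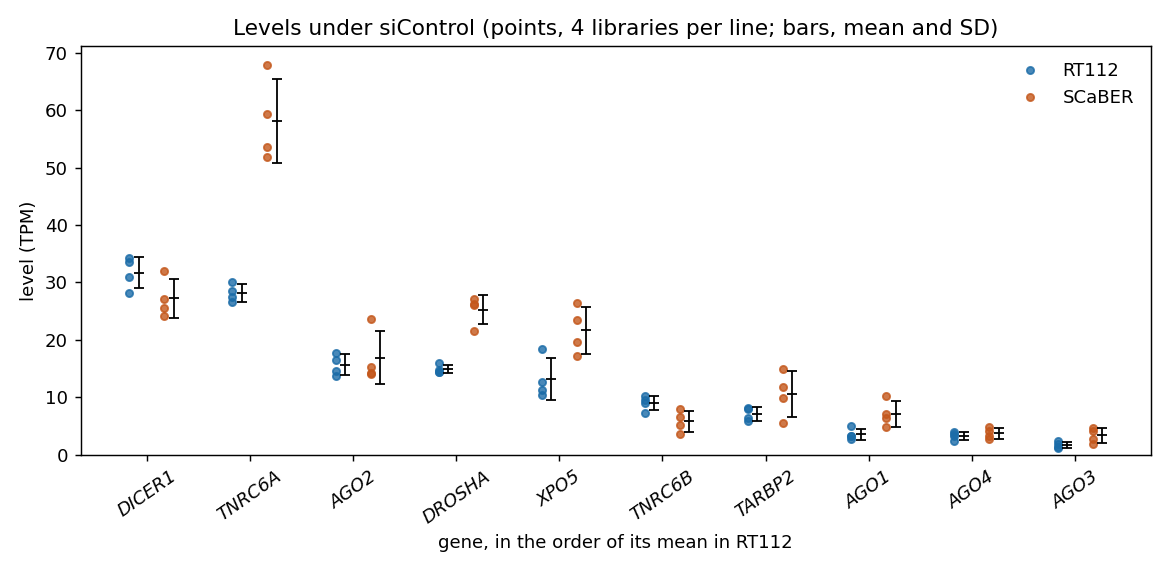
Level of each gene in TPM (vertical axis) in the 4 siControl libraries of RT112 and of SCaBER, with genes in the order of their mean in RT112; points are libraries and bars the mean and SD. TNRC6A stands at 26.5 to 30.0 TPM in RT112 and at 51.8 to 67.8 in SCaBER. The mean of AGO3 is lowest in both lines, though in SCaBER its points overlap those of AGO4.

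Within the Argonaute family AGO2 carried most of the RNA in the controls. Its share of the summed TPM of AGO1 to AGO4 was 64.9% ± 4.51 in RT112 and 54.0% ± 2.75 in SCaBER (SD, n = 4 control libraries). Within TNRC6A to TNRC6C the share of TNRC6A was 72.1% ± 1.60 in RT112 and 89.0% ± 1.96 in SCaBER. In CPM the shares of AGO2 were 69.6% ± 4.04 and 57.4% ± 2.94, and those of TNRC6A 64.4% ± 2.08 and 85.2% ± 2.78. These shares are descriptions with no test. The share of TNRC6A was 57.8% and 66.7% in the siFOXA1.1 libraries of RT112, below all 4 controls (70.4% to 74.1%), and 75.9% and 77.9% in the siFOXA1.2 libraries, above them. In SCaBER it ran from 87.5% to 92.1% over all 8 libraries. The TPM share of AGO2 was 59.2% to 70.6% with siFOXA1 in RT112. In SCaBER it was 31.9% and 52.6% under siFOXA1.1 and 55.1% and 62.5% under siFOXA1.2, against 50.6% to 56.9% in the controls. In siFOXA1.1 replicate 1 of SCaBER AGO4 was above AGO2 in TPM (35.1%), but not in CPM (19.9% against 39.5%).

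**Figure D2:**
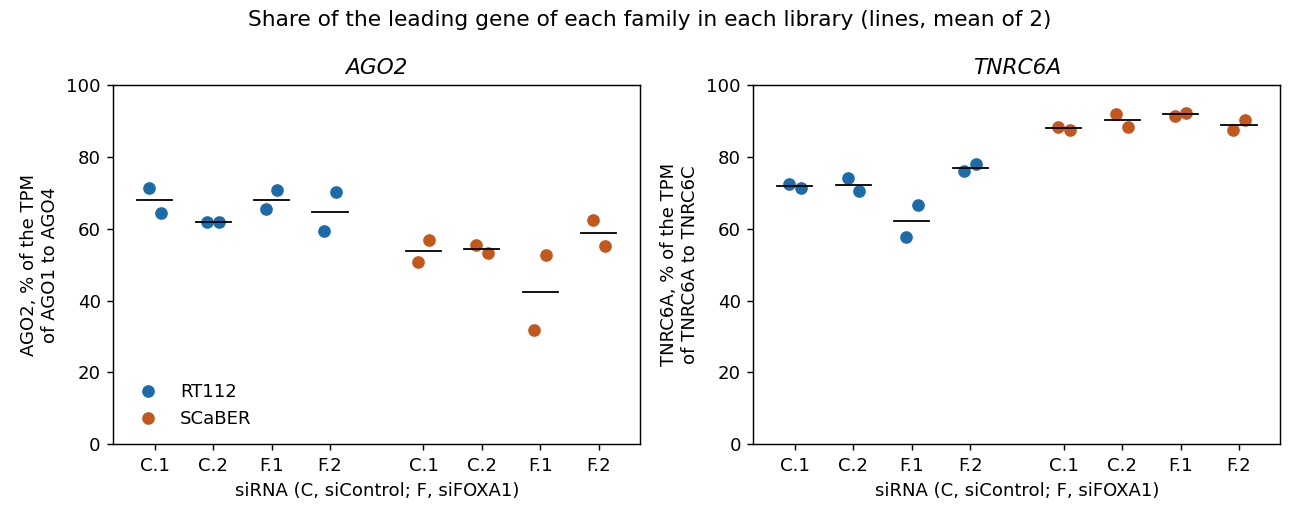
Share of AGO2 in the summed TPM of AGO1 to AGO4 (left) and of TNRC6A in that of TNRC6A to TNRC6C (right), in percent, for each library by line and siRNA; points are libraries and lines the mean of 2. The TNRC6A share in RT112 is 57.8% and 66.7% under siFOXA1.1 and 75.9% and 77.9% under siFOXA1.2.

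Whether the lines differed before knock-down was tested with edgeR's quasi-likelihood test over the 8 control libraries, adjusted by Benjamini-Hochberg over 12309 genes. TNRC6A was lower in RT112, and TNRC6B and DICER1 were higher. So 3 of the 10 genes passed, or 30%, where 43.4% of all genes tested did. The median log2 difference of RT112 from SCaBER was -0.26 over the 10 genes and 0.02 over all genes.

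TNRC6A, which recruits the deadenylation enzymes, read 194, 181, 175 and 194 CPM in the RT112 controls and 269, 331, 275 and 298 CPM in those of SCaBER. The lines did not overlap, and RT112 was lower by a log2 difference of -0.64 (SE 0.12, adjusted p = 0.000569). Between controls of equal batch number it was -0.56 (batch 1) and -0.74 (batch 2). Equal numbers were not taken as a batch shared by the lines, since the fit with a replicate block gave each line its own term. TNRC6B, its paralog, read 107, 100, 71.9 and 90.6 CPM in RT112 against 52.2, 59.8, 28.9 and 40.2 in SCaBER. Every RT112 control was above every SCaBER control, with a log2 difference of 1.04 (SE 0.22, adjusted p = 0.00133, 1.16 and 0.95 by batch number). DICER1 read 216, 222, 187 and 173 CPM in RT112 against 133, 148, 118 and 122, again without overlap, a log2 difference of 0.63 (SE 0.14, adjusted p = 0.00234, 0.68 and 0.54 by batch number). On TPM with limma the median over all genes moved to -0.32 (log2, pseudocount 1). There TNRC6A still passed, DICER1 (adjusted p = 0.245) and TNRC6B (adjusted p = 0.0695) did not, and AGO1, DROSHA and XPO5 passed as lower in RT112. Under edgeR those 3 had log2 differences of -0.59, -0.36 and -0.33 that did not pass (adjusted p = 0.0717, 0.0823 and 0.209).

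The knock-down was first tested as the study pools it, 4 siFOXA1 against 4 siControl libraries within each line. None of the 10 genes passed in either line (edgeR, lowest adjusted p = 0.413 in RT112 and 0.670 in SCaBER, and 0 with DESeq2). At an unadjusted p under 0.05 it was 0 in both lines, where 12.1% of all genes in RT112 and 8.9% in SCaBER had one. Few genes passed at all in edgeR, 13 of 11986 (0.108%) in RT112 and 1 of 11902 (0.0084%) in SCaBER. DESeq2 called 168 and 37 of the same genes. Each siRNA was therefore also taken alone against both controls of its line. The comparisons of siFOXA1.1 and of siFOXA1.2 share their control libraries, so their values are given side by side only.

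**Figure D3:**
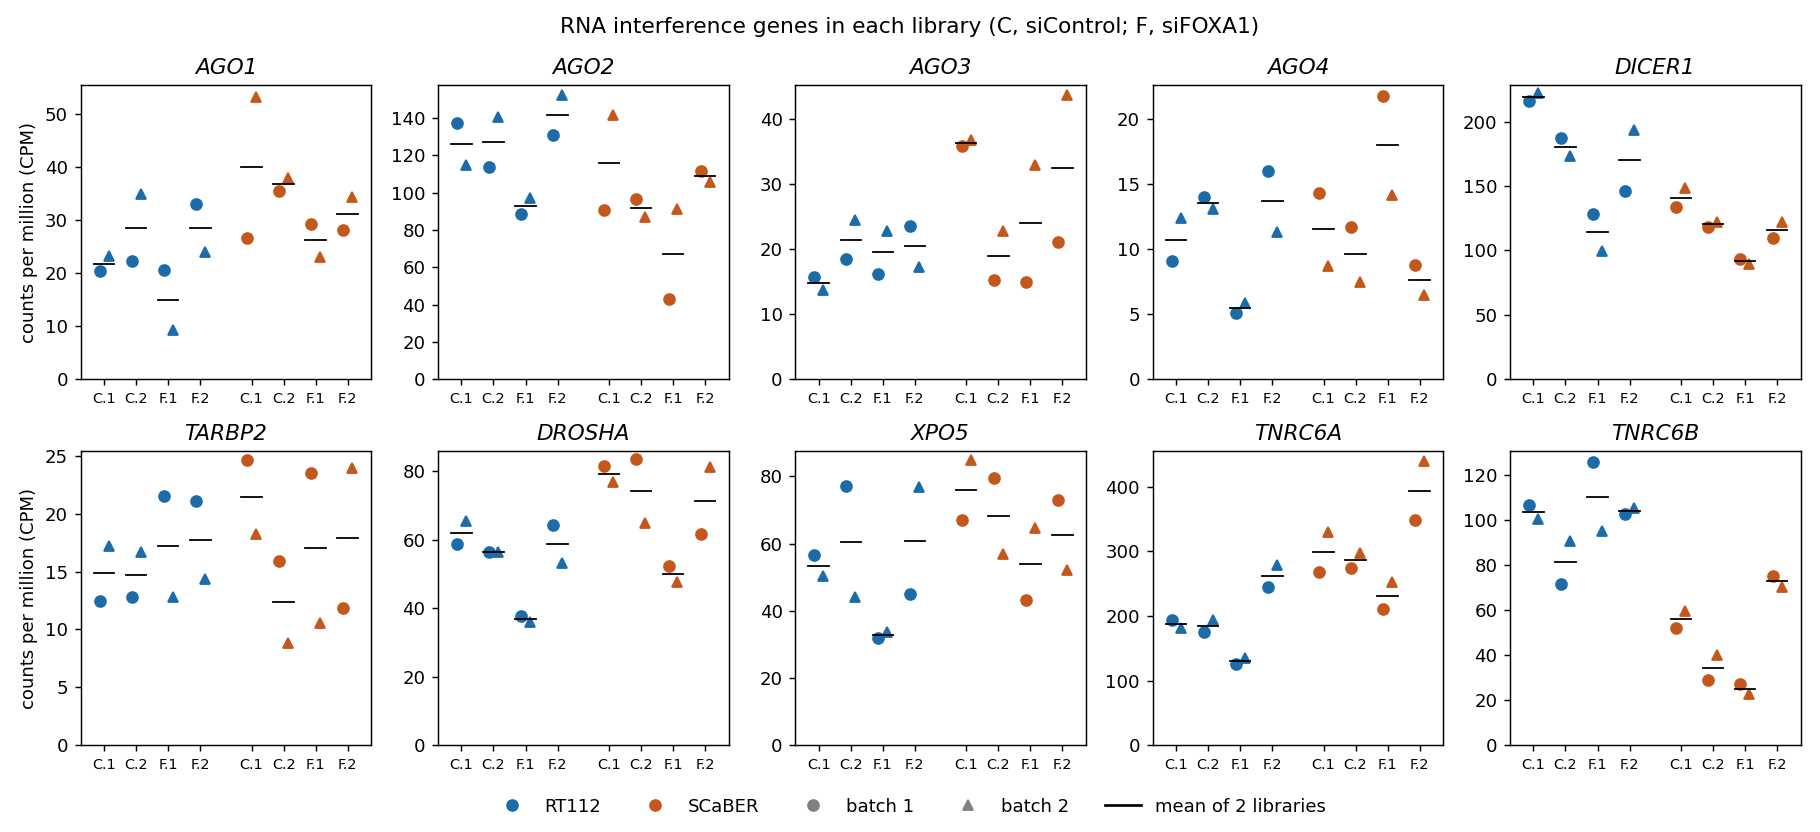
CPM of each of the 10 genes (vertical axes, from 0) in each library, by line (blue RT112, orange SCaBER), siRNA (C.1 and C.2 for the control siRNAs, F.1 and F.2 for those against FOXA1) and batch (circle 1, triangle 2), with the mean of 2 libraries as a line. DICER1 and DROSHA are lowest under siFOXA1.1 in both lines, and TNRC6A is lowest under siFOXA1.1 and highest under siFOXA1.2 in both.

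With siFOXA1.1 in RT112, DICER1, DROSHA and TNRC6A fell. These were 3 of the 10 genes, or 30%, where 32.6% of all 11986 genes tested passed and 17% as lower, so the share called was near the background. The median log2 fold change was -0.46 over the 10 genes and -0.01 over all genes, with 7 of 10 estimates below 0 and 6056 of 11986 over all genes. The CPM below are per library total. For the siFOXA1.1 libraries of RT112, edgeR's scaling over all 16 libraries gave factors of 0.948 and 0.917. The fits computed their own factors over the 8 RT112 libraries after the filter, and these are not given here. With library totals alone the median of all genes was -0.14 in place of -0.01. So the log2 fold changes of the fits lie above those the CPM alone give (smaller falls and larger rises).

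DICER1 read 216 and 222 CPM under siControl.1, 187 and 173 under siControl.2, 128 and 99.9 under siFOXA1.1 and 146 and 194 under siFOXA1.2 in batches 1 and 2 of RT112. Both siFOXA1.1 libraries lay under all 4 controls, while the siFOXA1.2 libraries overlapped them. DICER1 fell by 0.67 on the log2 scale under siFOXA1.1 (SE 0.15, edgeR adjusted p = 0.00182, -0.65 and -0.97 within batches as log2 CPM) and passed in all 19 alternatives. Under siFOXA1.2 the estimate was -0.21 (SE 0.14, adjusted p = 0.647).

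DROSHA, the nuclear enzyme of the first cut, read 58.8, 65.4, 56.4 and 56.3 CPM in the controls of RT112, 37.6 and 36.1 under siFOXA1.1 and 64.4 and 53.3 under siFOXA1.2. The siFOXA1.1 libraries lay under all others, and DROSHA fell by 0.55 (log2; SE 0.20, adjusted p = 0.0387, -0.61 and -0.74 within batches). This call was close to the threshold and passed in 10 of 19 alternatives, with adjusted p from 0.0106 to 0.149. It was lost without any 1 of the 6 libraries compared (adjusted p = 0.0536 to 0.111), with siControl.2 as the only control (0.149), with a filter of 1 count (0.0520) and with all 16 libraries in 1 fit (0.0576).

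TNRC6A read 194, 181, 175 and 194 CPM in the controls of RT112, 126 and 136 under siFOXA1.1, and 244 and 278 under siFOXA1.2. The FOXA1 siRNAs left the control range on opposite sides. TNRC6A fell by 0.37 on the log2 scale under siFOXA1.1 (SE 0.13, adjusted p = 0.0317, -0.54 and -0.47 within batches) and was higher by 0.51 under siFOXA1.2 (SE 0.12, adjusted p = 0.0338, 0.41 and 0.57 within batches). It was the only 1 of the 10 genes to pass with siFOXA1.2 in RT112, where 2.04% of all genes passed and 1.04% as higher. Between siControl.1 and siControl.2 of RT112 2.36% of all genes passed, and TNRC6A did not (0.09, SE 0.14, adjusted p = 0.896). The lower value passed in 14 of 19 alternatives and was lost without siControl.1 replicate 1 (adjusted p = 0.0778), siFOXA1.1 replicate 1 (0.164) or siControl.2 replicate 2 (0.0788), with siControl.2 as the only control (0.103) and with all 16 libraries in 1 fit (0.0775). The higher value under siFOXA1.2 passed in 8 of 19 and was lost without any 1 of the 6 libraries compared (adjusted p = 0.0697 to 0.437) and on TPM (0.238 and 0.243).

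The mitochondrial share was higher in these same siFOXA1.1 libraries. With mitochondrially encoded genes left out of the counts and totals, DICER1 (-0.67, adjusted p = 0.00156), DROSHA (-0.55, 0.0398) and TNRC6A (-0.37, 0.0289) kept their log2 fold changes and their calls. The scaling in edgeR already allows for such a shift in totals, so little change could appear here. What the higher share reflects was not tested.

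The other 7 genes did not pass with siFOXA1.1 in RT112. XPO5, the exporter of the hairpin, read 56.7, 50.3, 77.0 and 44.2 CPM in the controls and 31.8 and 33.6 under siFOXA1.1, below all 4 (log2 fold change -0.67, SE 0.26, adjusted p = 0.0571). It passed with a filter of 1 count (adjusted p = 0.0149), without siControl.2 replicate 2 (0.0203) and without siFOXA1.2 replicate 1 (0.0407) or 2 (0.0469), and also with library totals alone and on TPM. AGO4, an Argonaute with 35 and 40 counts in these libraries, read 9.07, 12.4, 14.0 and 13.1 CPM in the controls and 5.13 and 5.89 under siFOXA1.1 (log2 fold change -0.99, SE 0.44, adjusted p = 0.0917). Both genes lay under every control, and neither difference passed. TNRC6B was at 126 and 95.2 CPM against 71.9 to 107 in the controls (0.40, SE 0.15, adjusted p = 0.0560). The control range overlapped its lower library, and the batches differed, at 0.52 and -0.00.

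AGO1 (-0.61, SE 0.34, adjusted p = 0.183) and AGO2 (-0.31, SE 0.15, adjusted p = 0.133) had estimates below 0 with siFOXA1.1 in RT112. AGO1, 1 of the Argonautes without the well-known cutting role of AGO2, read 20.6 CPM in batch 1, within the controls (20.4 to 34.9), and 9.28 CPM in batch 2, below them. Without the batch 1 library its log2 fold change was -1.27 (adjusted p = 0.0223), with the lone siFOXA1.1 library taken to vary as the other groups did. AGO3 (0.27, SE 0.32, adjusted p = 0.547) and TARBP2 (0.34, SE 0.35, adjusted p = 0.492) had estimates above 0, and both overlapped the controls. Under siFOXA1.2 in RT112 the 9 genes other than TNRC6A had log2 fold changes from -0.21 to 0.28, none of which passed.

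**Figure D4:**
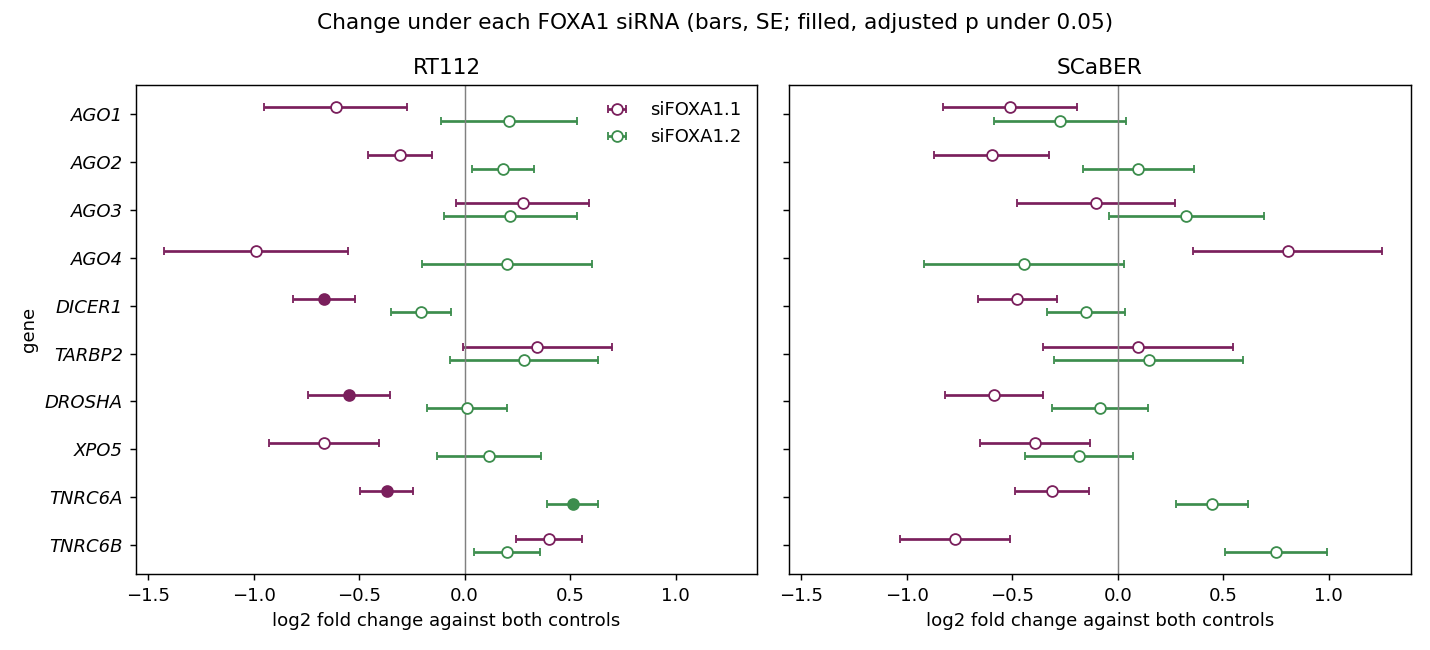
Log2 fold change (horizontal axis, bars are the SE) of each gene under siFOXA1.1 and siFOXA1.2 against both controls in RT112 (left) and SCaBER (right); filled points have an adjusted p under 0.05. DICER1, DROSHA and TNRC6A are filled below 0 for siFOXA1.1 in RT112, TNRC6A is filled above 0 for siFOXA1.2, and no point is filled in SCaBER.

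With siFOXA1.1 in SCaBER none of the 10 genes passed (edgeR, lowest adjusted p = 0.0822, and 0 with DESeq2), where 9.26% of all genes did. At an unadjusted p under 0.05 there were 4 of the 10 genes and 23% of all genes. The median log2 fold change was -0.43 over the 10 genes and 0.01 over all genes, with 8 of 10 estimates below 0. By chi-square per gene, these 2 siFOXA1.1 libraries differed from each other more than any other replicate pair (36.8, against 8.56 to 23.4). DICER1 read 133, 148, 118 and 122 CPM in the controls and 93.2 and 89.8 under siFOXA1.1 (-0.48, SE 0.19, adjusted p = 0.140). DROSHA read 81.5, 76.8, 83.6 and 64.9 CPM and then 52.3 and 47.7 (-0.59, SE 0.23, adjusted p = 0.143). For both, the siFOXA1.1 libraries lay under all 4 controls, as they did in RT112, and the difference between the lines did not pass (-0.21 with SE 0.23 and adjusted p = 0.755 for DICER1, 0.02 with SE 0.29 and adjusted p = 1.00 for DROSHA).

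TNRC6B read 52.2, 59.8, 28.9 and 40.2 CPM in the controls of SCaBER, 27.3 and 23.0 under siFOXA1.1 and 75.3 and 70.5 under siFOXA1.2. The siFOXA1.1 libraries lay under every control and the siFOXA1.2 libraries above every control, though siControl.1 was also above siControl.2 (log2 difference 0.69, SE 0.29, adjusted p = 0.725). Against both controls neither siRNA passed (-0.77, SE 0.26, adjusted p = 0.0822 and 0.75, SE 0.24, adjusted p = 0.652). The siFOXA1.1 value passed with siControl.1 as the only control (adjusted p = 0.0378) and with all 16 libraries in 1 fit (0.0225). TNRC6A followed the same order, with 269, 331, 275 and 298 CPM in the controls, 211 and 252 under siFOXA1.1 (-0.31, SE 0.18, adjusted p = 0.321) and 348 and 440 under siFOXA1.2 (0.45, SE 0.17, adjusted p = 0.784).

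The Argonautes were more scattered in SCaBER. AGO2 read 43.2 CPM in batch 1 of siFOXA1.1 and 91.1 in batch 2, against 86.8 to 142 in the controls (-0.60, SE 0.27, adjusted p = 0.206). Without the batch 2 library the log2 fold change was -1.18 (adjusted p = 0.0169), with the remaining siFOXA1.1 library assumed to vary like the other groups. AGO4 read 21.8 and 14.2 CPM against 7.51 to 14.3 (0.80, SE 0.45, adjusted p = 0.312). AGO1 (-0.51), AGO3 (-0.10), XPO5 (-0.39) and TARBP2 (0.10) also did not pass (adjusted p = 0.378, 0.912, 0.409 and 0.931). With siFOXA1.2 in SCaBER none passed (edgeR, lowest adjusted p = 0.652, and 0 with DESeq2), where 0.042% of all genes did, and 2 of the 10 genes had an unadjusted p under 0.05, as had 5.33% of all genes.

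Whether siFOXA1.1 acted differently in the lines was tested as an interaction over all 16 libraries, where 3.14% of 13701 genes passed. TNRC6B was the 1 gene of the 10 that did. Its log2 fold change was 0.40 in RT112 and -0.77 in SCaBER in the separate fits, and the interaction estimate was 1.16 (SE 0.28, adjusted p = 0.0320). It passed in 15 of 24 alternatives, reached an adjusted p of 0.243 on TPM, and was lost without any 1 of 7 libraries (adjusted p = 0.0520 to 0.138). These were siControl.1 replicate 2, siControl.2 replicate 2 and siFOXA1.1 replicate 2 of SCaBER, and siControl.1 replicates 1 and 2, siControl.2 replicate 1 and siFOXA1.1 replicate 1 of RT112. AGO4 also had estimates of opposite sign, -0.99 and 0.80, but its interaction of -1.81 (SE 0.62) had an adjusted p of 0.130. For siFOXA1.2 none passed (edgeR, lowest adjusted p = 0.859 for TNRC6B, at -0.55, SE 0.28, and 0 with DESeq2), where 0.0438% of all genes did. At an unadjusted p under 0.05 it was 0 of the 10 and 6.05% of all genes.

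siFOXA1.1 was also compared directly with siFOXA1.2. In RT112 TNRC6A (log2 difference of siFOXA1.1 from siFOXA1.2 -0.88, SE 0.14, adjusted p = 0.000179, -0.95 and -1.04 within batches), AGO2 (-0.49, SE 0.17, adjusted p = 0.0416) and DICER1 (-0.46, SE 0.17, adjusted p = 0.0448) were lower with siFOXA1.1. These were 3 of the 10 genes, where 28.1% of all genes passed and 15.1% as lower. TNRC6A passed in all 17 alternatives. AGO2 read 88.6 and 97.4 CPM under siFOXA1.1 and 131 and 152 under siFOXA1.2, and passed in 10 of 17. DICER1 passed in 9 of 17, and without siFOXA1.2 replicate 2 its adjusted p was 0.423 and that of AGO2 was 0.247.

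In SCaBER TNRC6B (-1.52, SE 0.29, adjusted p = 0.00768, -1.45 and -1.60 within batches) and TNRC6A (-0.76, SE 0.20, adjusted p = 0.0445, -0.72 and -0.80 within batches) were lower with siFOXA1.1 than with siFOXA1.2. These were 2 of the 10 genes, where 4.85% of all genes passed and 2.8% as lower. The 2 libraries of siFOXA1.1 lay below the 2 of siFOXA1.2 for both genes. TNRC6B passed in 13 of 17 alternatives and TNRC6A in 10, and neither passed on TPM (adjusted p = 0.0990 and 0.134 with a pseudocount of 1) or without siFOXA1.2 replicate 1 (0.103 and 0.142) or replicate 2 (0.0580 and 0.345).

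The controls set the background for such a comparison. Between siControl.1 and siControl.2 none of the 10 genes passed in RT112 (edgeR, lowest adjusted p = 0.323) or in SCaBER (0.725), and 0 did with DESeq2, where 2.36% and 0.0672% of all genes passed in edgeR. At an unadjusted p under 0.05 there were 2 of the 10 in RT112, against 13.2% of all genes, and 1 in SCaBER, against 6.64%. These were TNRC6B (log2 difference of siControl.1 from siControl.2 0.41) and DICER1 (0.34) in RT112 and TNRC6B (0.69) in SCaBER, all higher with siControl.1. In SCaBER all 10 estimates were above 0, with a median log2 difference of 0.23.

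The pattern of each member over the libraries was set beside that of all other genes, as Pearson's r of log2 CPM after subtracting the mean of each line, over 16 libraries and 9705 genes with a mean of at least 20 counts in each line. These values are descriptions, since the libraries share depth, line and siRNA. The 3 genes most like DICER1 were DYNLRB1 (r = 0.948), LCN2 (0.923) and ANLN (0.919), and those most like DROSHA were PTPRA (0.939), NDUFB10 (0.932) and PFKL (0.927). Those most like TNRC6A were COLGALT1 (0.895), SAV1 (0.889) and STON2 (0.881), and those most like TNRC6B were BSPRY (0.881), ATG4D (0.880) and UBE4B (0.873). For the Argonautes the closest gene was CTDSP2 for AGO2 (0.943), HNRNPA2B1 for AGO1 (0.877), PAF1 for AGO4 (0.837) and ATP2C1 for AGO3 (0.826). For XPO5 it was TRMT1L (0.912), and for TARBP2 it was AC010642.2 (0.825).

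The other genes of the pathway were read from lists of 67 genes for processing, Argonaute loading, Argonaute partners, deadenylation and decapping, small RNA turnover and the PIWI family. The PIWI genes (PIWIL1 to PIWIL4) were too low to be tested. With siFOXA1.1 in RT112, 8 of 60 tested genes rose and 9 fell, 28.3% against 32.6% of all genes, and the median log2 fold change was -0.11 against -0.01. By list, 2 rose and 3 fell of 11 processing genes, 0 and 3 of 8 loading genes, 0 and 1 of 12 partners, 4 and 1 of 21 deadenylation and decapping genes, and 2 and 1 of 8 turnover genes.

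Among the genes named from these lists, the largest rise was that of a turnover gene. ZSWIM8, the substrate receptor of the ubiquitin ligase that removes Argonaute during target-directed microRNA degradation, went from 10.9 to 17.5 CPM in the controls to a mean of 44.8 in the 2 siFOXA1.1 libraries (log2 fold change 1.85, SE 0.29, adjusted p = 8.78e-05). The decapping activators EDC3 (1.49, SE 0.24, adjusted p = 0.000112) and PATL1 (1.11, SE 0.15, adjusted p = 2.12e-05), the 5'-to-3' exonuclease XRN1 (0.85, SE 0.20, adjusted p = 0.00321) and the terminal uridylyltransferase TUT7 (0.80, SE 0.18, adjusted p = 0.00205) also rose. TUT4, the paralog of TUT7 that adds uridines to let-7 precursors, fell from 16.5 to 30.6 CPM in the controls to 7.07 and 7.18 (-1.48, SE 0.33, adjusted p = 0.00211). CNOT9, a subunit of the CCR4-NOT deadenylase that binds TNRC6 proteins, fell by 0.85 (log2; SE 0.17, adjusted p = 0.000933). The HSP90 co-chaperone FKBP4 (-0.70, adjusted p = 0.00183), the importin IPO8, which binds Argonaute (-0.67, adjusted p = 0.0156), and the splicing factor SRSF3 (-0.54, adjusted p = 0.00106) fell as well.

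**Figure D5:**
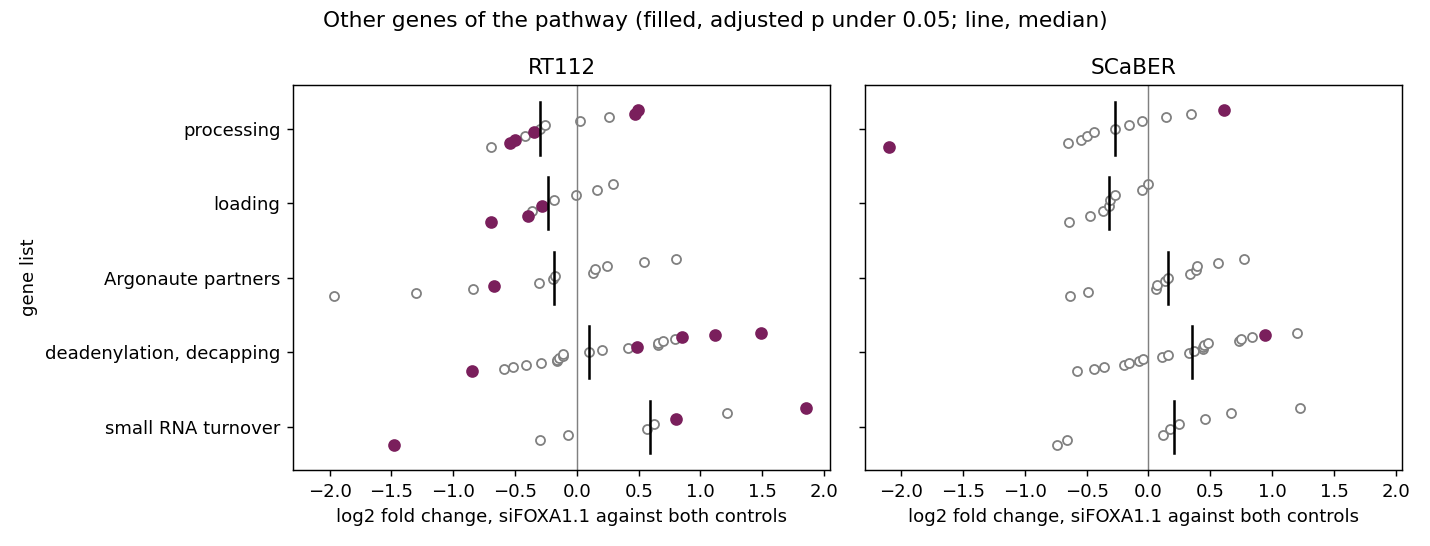
Log2 fold change under siFOXA1.1 against both controls (horizontal axis) for each tested gene of 5 lists, in RT112 (left) and SCaBER (right); filled points have an adjusted p under 0.05, and the line is the median of the list. In RT112 the deadenylation and decapping list has 4 filled points above 0 and 1 below, and the loading list has 3 below 0 and none above.

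In SCaBER 3 of 58 pathway genes passed with siFOXA1.1, 5.17% against 9.26% of all genes. XRN1 rose from 52.1 to 66.1 CPM in the controls to 105 and 117 (0.94, SE 0.22, adjusted p = 0.0161), and the RNA-editing enzyme ADAR rose as well (log2 fold change 0.61, SE 0.17, adjusted p = 0.0389). PRKRA (PACT), a DICER1 partner related to TARBP2, fell from 9.90 to 23.2 CPM to 2.46 and 4.36 (-2.10, SE 0.57, adjusted p = 0.0326). No pathway gene passed the test of a difference between the lines, so no gene of these lists was shown to respond in 1 line alone.

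Between the lines under siControl, 23 of 59 pathway genes passed, 39.0% against 43.4% of all genes, with 10 higher and 13 lower in RT112. Of the 12 Argonaute partners, 4 were higher and 6 lower. The deadenylase subunits PAN2 (2.63) and PAN3 (0.89), the decapping helicase DDX6 (1.54), the scaffold LIMD1 (1.26) and the helicase MOV10 (0.68) were, among genes with a mean of at least 20 counts, the highest in RT112 by log2 difference. The lowest were AJUBA (-2.19), a LIM-domain relative of LIMD1, the SMN-complex proteins GEMIN4 (-1.30) and DDX20 (-0.96), FXR2 (-0.95), an FMR1 relative, and TSNAX (-0.92), part of the translin complex that clears the discarded siRNA strand. Adjusted p-values of these 10 ran from 5.70e-06 for DDX6 to 0.0396 for LIMD1 (edgeR).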

How the data were processed

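RNA of 16 libraries was measured with a 3' mRNA-seq kit. The authors deposited raw counts per gene and TPM, which they had scaled by gene length to a common total per library (the length used is not given in the sources used here). The deposited configuration names TrimGalore 0.6.2 for trimming (minimum quality 20, minimum length 10), STAR 2.6.1a with hg38 for alignment, and GENCODE 29 for counting, with strand set automatically. The study's methods name hg19 for its RNA-seq. No molecular identifiers were named, so counting limits (3 counts, 0.394 to 0.662 CPM) cover counting error only.

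Counts were tested with edgeR 4.0.16 (R 4.3.3; filterByExpr by line and siRNA target, TMM, quasi-likelihood F test, Benjamini-Hochberg over all genes tested, threshold 0.05). The fits were 1 mean per target or per siRNA within a line, the 8 control libraries between lines, and an interaction over 16 libraries, 13 comparisons in all. Log2 fold changes come from these fits. edgeR's test reports no SE, so each SE given is the absolute log2 fold change divided by the square root of its F statistic. It carries the same information as the p-value. CPM were per library total, and differences within batches or by batch number used log2 CPM with a prior count of 2. Alternatives were DESeq2 1.42.0, limma 3.58.1 on log2(TPM + 1) and log2(TPM + 0.1), other scalings and filters, single controls, a replicate block and leaving out each library. A fold change on the log2(TPM + pseudocount) scale understates low genes. Scripts were tested on simulated data, with log2 fold changes of 1 or 2 set for siFOXA1.1 in 100 genes each. Of changes of 1, edgeR recovered 59% in RT112 and 30% in SCaBER. Of changes of 2 it recovered 91% and 94%. False calls made up 4.46% and 7.46% of edgeR's calls, and 7.65% and 18.3% of those of DESeq2. Python 3 tools read levels, shares and RefSeq promoter windows.

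Groups came from the labels, where the replicate number marks the experiment batch and so pairs libraries across siRNAs. Deviations of same-numbered libraries from their group means correlated at -0.0184 to 0.0137 in RT112 and 0.0187 to 0.200 in SCaBER. All count columns belonged to these 16 libraries, and no replicate pair agreed within sampling noise.

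The members and gene lists were chosen with earlier results of these data known. All 10 members are reported in every comparison. From the pathway lists, up to 5 higher and 5 lower genes with the largest log2 fold change are named per comparison of siFOXA1.1 with the controls and of the lines, if the adjusted p passed and the mean was at least 20 counts, with the 3 genes of highest r for likeness of pattern (given in full for 4 members). Adapter and index lists were not used.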

Additional observations from a re-analysis of the deposited data

Results flagged for a closer look

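The estimates of TNRC6B under siFOXA1.1 had opposite signs in the lines, and the test of that difference passed. This call held in 15 of 24 alternatives and was lost on both TPM scales (limma, adjusted p = 0.243 and 0.217). The interaction estimate was 1.16 on the log2 scale (SE 0.28, edgeR adjusted p = 0.0320 over 13701 genes). Against both controls its log2 fold change was 0.40 in RT112 and -0.77 in SCaBER, and neither passed in its own line (adjusted p = 0.0560 and 0.0822). Within batches 1 and 2 the siFOXA1.1 libraries differed from the controls in RT112 by 0.52 and -0.00, while the values for SCaBER were -0.50 and -1.09. With any single library left out, adjusted p reached 0.138 at most.

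No library stood apart from its group for any of the 10 genes in the 40 groups of 4 libraries tested (Dixon's gap ratio at its 95% critical value, which chance alone passes in about 1 of 20 groups). Each group joined the 2 siRNAs of a target, and where these differ, as for TNRC6A and TNRC6B, the wider range makes a lone library harder to detect.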

How the results depend on the processing

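The direction of all 13 calls of single genes was the same in every alternative run. With the replicate block (batch as a term) the number and names of the genes called were the same in all 13 comparisons, for example 3 for siFOXA1.1 in RT112 (DICER1, DROSHA, TNRC6A). Counts of the 10 genes called that moved by over 1.5 times were as follows, with smaller moves at the end. For siFOXA1.1 in RT112 (3 called) 5 were called with library totals alone, 6 with limma on either TPM scale, 1 with all 16 libraries in 1 fit, and 1 to 4 with a library left out. Library totals alone moved the median of all genes there from -0.01 to -0.14, and TPM + 1 moved it to -0.29. The added calls were AGO2, XPO5 and, on TPM, AGO4, of which XPO5 also passed in 4 settings given above. For siFOXA1.2 in RT112 (1 called) 0 were called on either TPM scale, with either control alone and in the joint fit, and 0 to 1 with a library left out. For siFOXA1.1 against siFOXA1.2 in RT112 (3 called) the count was 5 with library totals alone and on either TPM scale, 1 with RLE size factors and in the joint fit, and 1 to 3 with a library left out. Between these siRNAs in SCaBER (2 called) it was 0 on either TPM scale and 0 to 3 with a library left out. For siFOXA1.1 in SCaBER (0 called) TNRC6B made 1 with siControl.1 alone and in the joint fit, and leaving out a library gave 0 to 1. Pooled over siRNAs, 1 gene (DICER1, adjusted p = 0.0386) was called in RT112 in the joint fit. For the interaction of siFOXA1.1 (1 called) it was 0 on either TPM scale and 0 to 1 with a library left out. TNRC6B passed as higher with siFOXA1.1 in RT112 under DESeq2 (0.42, adjusted p = 0.0413), RLE size factors (0.42, 0.0462), siControl.2 alone (0.61, 0.0178; 2 genes called) and without siControl.2 replicate 2 (0.0450) or siFOXA1.1 replicate 2 (0.0278). With a filter of 1 count, 4 genes were called between the FOXA1 siRNAs in RT112, XPO5 being added (0.0127). Between the lines 4 were called on either TPM scale, and 3 to 4 with a library left out, which added AGO1, AGO2 or AGO3. Depth limits AGO4, with 34 to 115 counts per library, and TARBP2, with 40 to 151, most.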

Other observations

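Between the control siRNAs 3 of 60 pathway genes passed in RT112, or 5% where 2.36% of all genes did, and 1 of 58 in SCaBER, or 1.72% where 0.0672% did. They are named here after their values were seen. The loading chaperone HSP90AA1 was lower with siControl.1 than with siControl.2 in RT112 (log2 difference -1.29, edgeR adjusted p = 7.73e-07) and in SCaBER (-0.98, adjusted p = 0.0363), while HSP90AB1 (-0.41, adjusted p = 0.0224) and the deadenylase subunit CNOT7 (-0.82, adjusted p = 0.0421) were lower in RT112. None of the 10 core genes passed this test.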
